A study of Mus musculus with 8 samples.

Results

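The 7 genes Ucn3, Mafa, Slc2a2, G6pc2, Trpm5, Esrrg and Npy, which change with the maturation of the pancreatic beta cell, were examined for chromatin accessibility in MIN6 cells. They are 7 of the 21887 protein-coding genes placed on the main chromosomes. Every accessible region (peak) over a gene body or within 25 kb on both sides was taken, which gave 91 of 100099 peaks with the empty vector and 87 of 128538 with Klf4. MIN6, an established line from a mouse insulinoma, releases insulin and serves as a beta cell model. The cells, labelled wild type, were transfected for 48 hours with the empty plasmid pcDNA 3 or with pGloMyc-Klf4, which expresses the zinc finger transcription factor Klf4. ATAC-seq, in which a transposase cuts and tags DNA that is free of nucleosomes, was run on 4 libraries of each plasmid. The labels do not say what share of the cells took up a plasmid. The values are 1 merged peak list per plasmid, so there is no spread between replicates and no test for any difference below. Ucn3 was chosen from these same lists for its fall in covered length with Klf4, so its values are a description. On the log2 ratio used below, Npy lay slightly lower than Ucn3.

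A beta cell becomes mature after birth, when it gains the ability to release insulin at a set glucose level. Mafa, a basic leucine zipper factor that binds MAF sites in the insulin gene, and Esrrg, an orphan nuclear receptor that drives genes of oxidative metabolism, are regulators of that step. Ucn3 (urocortin 3) is a peptide released with insulin that acts on somatostatin cells and marks mature beta cells, whereas Npy (neuropeptide Y) is a peptide of immature ones. Slc2a2 encodes the glucose transporter GLUT2. G6pc2 encodes the islet glucose-6-phosphatase, which turns glucose-6-phosphate back into glucose, and Trpm5 encodes a cation channel opened by calcium.

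The promoters shown are those whose peak coverage the results turn on. They run from 250 bases before to 50 after an annotated start site and come from RefSeq (GRCm38.p6), whose table held 10 start sites for 6 of the 7 genes and no entry for Mafa. Capitals mark matches on either strand to CACCC (KLF factors), TGCTGAC (MAF sites), AAGTG (core of NKX2 sites), CAGATG (an E-box) and AAGGTCA (ERR sites). The Ucn3 promoter is chr13:3945300-3945599 on the minus strand. The Npy promoter is chr6:49822460-49822759, that of Slc2a2 is chr3:28697653-28697952 and the downstream promoter of G6pc2 is chr2:69219699-69219998, all on the plus strand.
Ucn3: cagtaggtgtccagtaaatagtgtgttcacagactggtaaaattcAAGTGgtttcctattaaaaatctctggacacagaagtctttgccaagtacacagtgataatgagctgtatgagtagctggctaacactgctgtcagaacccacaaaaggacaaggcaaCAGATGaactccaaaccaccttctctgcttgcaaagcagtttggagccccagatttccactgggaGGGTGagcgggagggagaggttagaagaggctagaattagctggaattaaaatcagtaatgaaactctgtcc
Npy: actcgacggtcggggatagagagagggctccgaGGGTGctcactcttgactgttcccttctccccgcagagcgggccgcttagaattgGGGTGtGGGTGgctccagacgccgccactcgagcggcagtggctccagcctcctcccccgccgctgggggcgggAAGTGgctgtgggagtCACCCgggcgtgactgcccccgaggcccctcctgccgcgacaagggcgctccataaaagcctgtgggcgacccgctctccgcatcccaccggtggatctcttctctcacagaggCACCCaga
Slc2a2: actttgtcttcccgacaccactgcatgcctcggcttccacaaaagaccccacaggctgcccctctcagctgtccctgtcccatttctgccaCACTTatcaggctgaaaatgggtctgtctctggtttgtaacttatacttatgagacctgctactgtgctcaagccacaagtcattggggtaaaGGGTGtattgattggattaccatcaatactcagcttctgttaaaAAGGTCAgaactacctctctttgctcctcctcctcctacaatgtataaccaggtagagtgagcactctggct
G6pc2: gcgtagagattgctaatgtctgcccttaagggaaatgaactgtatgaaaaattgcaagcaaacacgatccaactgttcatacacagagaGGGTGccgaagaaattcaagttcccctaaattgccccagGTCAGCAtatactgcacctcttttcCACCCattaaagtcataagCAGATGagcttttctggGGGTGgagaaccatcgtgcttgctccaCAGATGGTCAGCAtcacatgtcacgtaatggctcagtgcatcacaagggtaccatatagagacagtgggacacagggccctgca

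Some facts of the whole lists bear on all values below. The Klf4 list covered 84.2 Mb and the empty vector list 66.0 Mb, and the read depth behind them is unknown. Over all protein-coding genes the median log2 ratio of covered length, with 500 bp added to both lengths, was 0.21. The strongest peak over the transfected gene ranked 1 of 128538 with Klf4 and 19941 of 100099 with the empty vector. Whether reads from the plasmid fall there was not tested, so this rank is not read as accessibility of the gene. All 5 beta cell markers with a listed start site (Ins1, Pdx1, Nkx6-1, Iapp and Neurod1) had it under a peak in both lists. Of 8 markers of other cell types with a listed start site, 2 were under a peak with the empty vector (Rbpjl and Cd68) and 4 with Klf4 (also Ptf1a and Cftr). The start sites of Sst, Hhex, Cpa1 and Ptprc were under no peak in either list. The 5 markers of other cell types without a listed start site all had more of the gene body covered with Klf4. The lengths were 0 and 985 bp at the duct marker Krt19, 3077 and 6334 bp at Pecam1 and 0 and 1997 bp at Cdh5 (endothelial), and 2662 and 4831 bp at Pdgfrb and 2578 and 2834 bp at Col1a1 (stromal). Over all 13 markers of other cell types, 8 gene bodies had more covered length with Klf4, 3 had less and 2 had no peak in either list, and the sum was 11132 bp with the empty vector against 21142 bp. Over the 6 beta cell markers it was 7441 against 7774 bp. The part of other cell types in the differences at the 7 genes was not tested. More cells with an open site and a site that is open more often per cell cannot be told apart in such bulk libraries.

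Covered length was lower with Klf4 at the peptide genes Ucn3 and Npy and higher at Trpm5. At Mafa it was higher by about the median ratio of all protein-coding genes (0.21). At Esrrg, G6pc2 and Slc2a2 it was nearly equal, slightly higher with Klf4. Of all protein-coding genes 20.2% had a ratio below 0 and 67.8% above 0. Peaks covered 2737 bp around Ucn3 in empty vector cells and 1640 bp in Klf4 cells (log2 ratio −0.60). They covered 2569 and 1506 bp around Npy (log2 ratio −0.61). Both genes lay near the low end of all protein-coding genes, at percentiles 1.45 and 1.33 of the log2 ratio. Ucn3 was chosen on this measure and Npy with earlier results of these data known, so these places are a description. The values were 7207 and 10426 bp around Trpm5 (log2 ratio 0.50) and 10123 and 11892 bp around Mafa (0.22). They were 6220 and 6752 bp around Slc2a2 (0.11), 5058 and 5397 bp around G6pc2 (0.09) and 24308 and 25453 bp around Esrrg (0.07). These 5 genes lay between percentiles 38.0 and 72.4, with Mafa at 51.4. The Klf4 list was also limited to its 100099 strongest peaks, the number in the empty vector list. The log2 ratio then turned to −0.18 at Esrrg, −0.092 at G6pc2 and −0.0075 at Slc2a2. It was −0.79 at Ucn3 and 0.17 at Mafa and did not change at Npy and Trpm5. This cut takes away Klf4 peaks alone, so a ratio can only fall or stay. It therefore cannot settle the direction at Esrrg, G6pc2 and Slc2a2. At G6pc2 the log2 ratio was also below 0 with 10 kb on both sides (−0.27) and without the peaks that touch Nostrin, Spc25 or Abcb11 (−0.30). Over the gene body it was −0.0078 at Esrrg, −0.55 at G6pc2 and 0.43 at Slc2a2 (1846 bp in empty vector cells and 2653 bp in Klf4 cells).

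Past a log2 ratio of 0.5 in size, 2 of the 7 genes were lower with Klf4, beside 2.07% of all protein-coding genes. One of these, Ucn3, was chosen on this measure. All 7 genes were chosen with earlier results of these data known, so the count supports nothing. The count of lower genes was 1 with 50 kb on both sides, with peaks of at least 500 bp, with the top 20000 peaks and with a limit on peak strength. On the other side 1 of 7, Trpm5, was higher by that much, beside 27.8% of all genes, and its ratio lay just past the limit. The median over the 7 genes was 0.09.

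**Figure D1:**
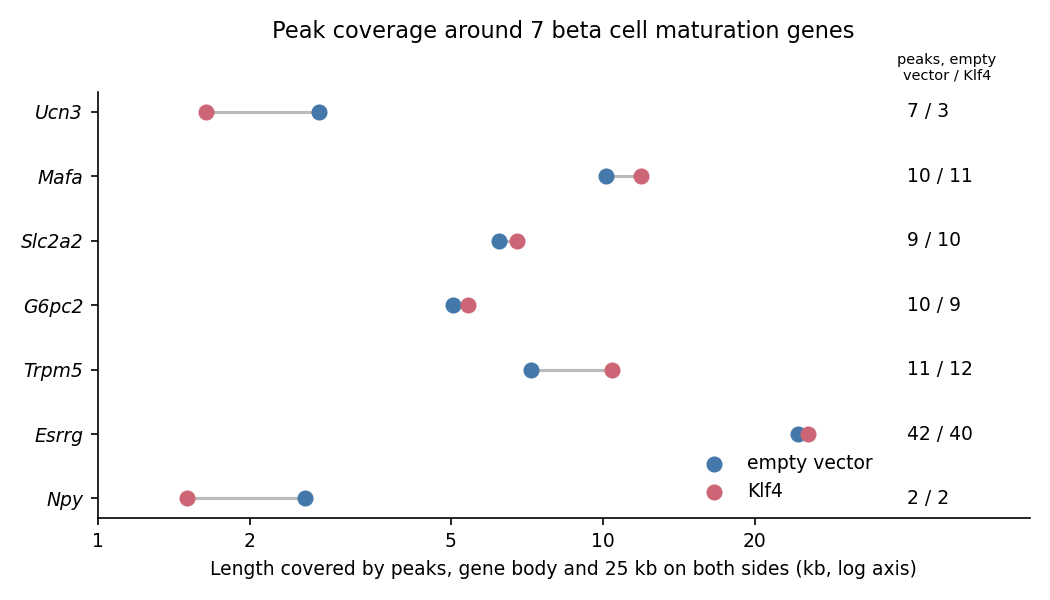
Length covered by peaks around each gene (kb, log axis), with 1 point per merged list, blue for the empty vector and red for Klf4, and peak numbers at the right. Ucn3 and Npy have the Klf4 point on the left, at 1640 and 1506 bp, and the other 5 genes have it on the right. At Esrrg, G6pc2 and Slc2a2 this does not hold with the Klf4 list cut to the number of empty vector peaks.

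**Figure D2:**
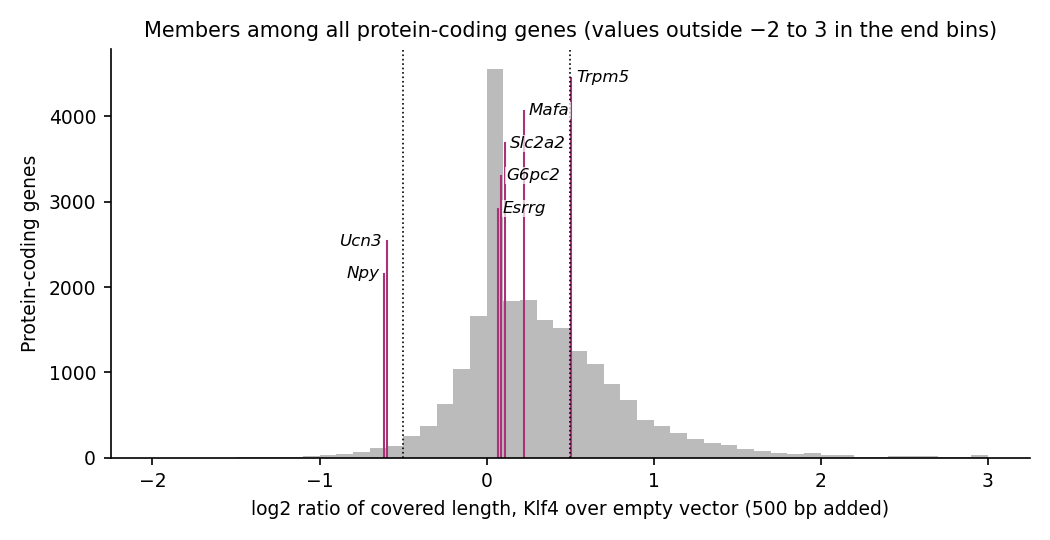
Histogram of the log2 ratio of covered length, Klf4 over empty vector, over 21887 protein-coding genes, with the 7 genes as vertical lines and the limit of 0.5 in either direction dotted. Ucn3, which was chosen on this measure, and Npy stand left of the lower limit, and the tall bin at 0 includes 2622 genes with a ratio of exactly 0.

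Ucn3 (chromosome 13, 3940688 to 3945349) had 7 peaks with the empty vector and 3 with Klf4. The difference came almost wholly from weak peaks. The 4 empty vector peaks with no Klf4 counterpart covered 1015 bp, or 37.1% of the empty vector length, and the 3 paired peaks together were 82 bp shorter with Klf4 (1640 against 1722 bp). The 4 unpaired peaks lay 6.40 kb upstream of the start site (3951668 to 3951837), 2.18 kb upstream (3947385 to 3947672), 1.65 kb downstream inside the gene (3943591 to 3943798) and 10.01 kb downstream at an end of Tubal3 (3935166 to 3935514). Their −log10 q values, the authors' measure of strength, were 3.57, 4.51, 1.68 and 1.66, and their widths ran from 170 to 349 bp. All 4 belonged to the weaker part of their list, at rank positions from 69.7 to 93.9% counted from the strongest. In the whole empty vector list, 37.3% of peaks with a −log10 q from 1 to 2 and 60.8% from 2 to 5 were overlapped by a Klf4 peak.

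The start site of Ucn3 was under an empty vector peak and not under a Klf4 peak. With the empty vector the peak ran from 3944984 to 3945505, covered 206 of the 300 bases of the promoter shown and held both the CACCC match and the CAGATG match. With Klf4 the overlapping peak ran from 3944910 to 3945177, lay wholly inside the gene and ended 172 bp short of the start site. Both peaks were weak, with a −log10 q of 2.06 and 2.34 and fold enrichments of 2.51 and 2.72 over local background. Of the 10 listed start sites of these genes, 7 were under an empty vector peak and 6 under a Klf4 peak, beside 44.3% and 49.7% of all 32851 in the table. Of all listed start sites, 1.11% were under an empty vector peak alone and 6.52% under a Klf4 peak alone.

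The remaining Ucn3 pairs were stronger. Inside the gene, 2.83 kb from the start site, the empty vector peak at 3942366 to 3942674 had a −log10 q of 12.8. Its Klf4 counterpart at 3942194 to 3942706 had 10.6 and was wider, 513 against 309 bp. The strongest pair (−log10 q 115 and 87.2) covered the start site of the neighbouring gene Net1 and was 891 bp wide in empty vector cells and 859 bp wide in Klf4 cells. Limiting both lists to peaks with a −log10 q of at least 5 left these pairs alone, and Ucn3 then had 1200 bp in empty vector cells and 1372 bp in Klf4 cells (log2 ratio 0.14), the opposite direction. Without the peaks that touch Net1 or Tubal3 the log2 ratio was −0.64.

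Npy (chromosome 6, 49822710 to 49829507) had the same pair of peaks in both lists and no others within 25 kb. Its difference lay in width alone. The peak over the start site began at 49822062 in both lists. It ended at 49824010 with the empty vector and at 49823139 with Klf4, so that it measured 1949 and 1078 bp. The part missing with Klf4 lay inside the gene, while all 300 bases of the promoter stayed covered. Its −log10 q was 35.6 with the empty vector and 49.8 with Klf4, within the strongest 18.4% and 9.05% of the lists. The other peak, about 3.7 kb into the gene, was 620 bp wide in empty vector cells and 428 bp wide in Klf4 cells (−log10 q 27.4 and 23.8). With a −log10 q of at least 5 in both lists the log2 ratio at Npy was the same, −0.61.

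**Figure D3:**
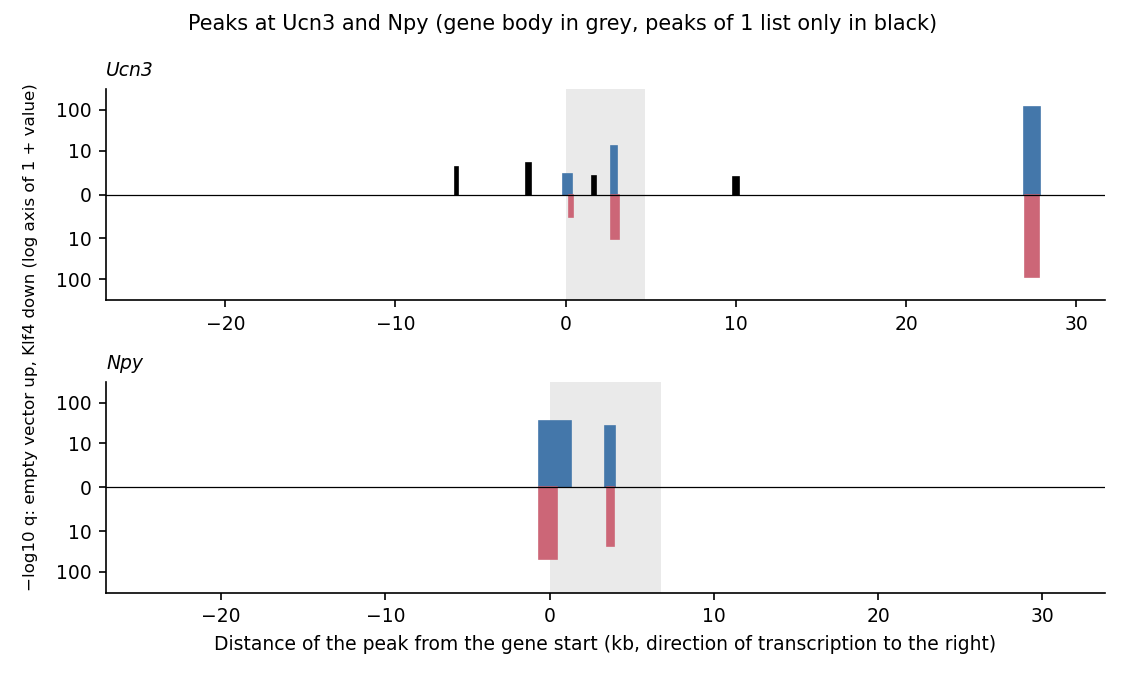
Peaks at Ucn3 and Npy by distance from the start site (kb, transcription to the right), with bar width the width of the peak and bar height its −log10 q (log axis of 1 + value), empty vector upward in blue and Klf4 downward in red. The 4 black bars at Ucn3 are the empty vector peaks with no Klf4 counterpart, and the Npy bar over the start site reaches less far into the gene with Klf4.

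The promoters of these peptide genes differ in base composition. That of Npy had 24 CpG sites and 68.0% G or C, and 19.98% of 32841 promoters had as many CpG sites. That of Ucn3 had 1 CpG site and 44.7% G or C, and 94.6% of promoters had as many. The Npy promoter held 5 CACCC matches, whereas Ucn3 held 1. At least 1 such match was found in 57.5% of all promoters, so its presence says little about any gene. A CAGATG match, as in Ucn3, was found in 17.2%.

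Mafa (chromosome 15, 75745501 to 75748321) lay in a window that ranked high for covered length, in part through peaks inside the neighbour Zc3h3. Peaks covered 19.2% of its window with the empty vector and 22.5% with Klf4, at percentiles 99.7 and 99.4 of all protein-coding genes. Without the peaks that touch Zc3h3 they covered 10.1% and 15.1%. All 10 empty vector peaks had a Klf4 counterpart, and 1 of 11 Klf4 peaks had none (75735296 to 75735772, −log10 q 3.12), beside 81.2% and 63.3% of peaks overlapped in the whole lists. The peak over the gene was the strongest around it in both lists and reached past its higher-coordinate end. It ran from 75746970 to 75748830 with the empty vector (1861 bp, −log10 q 90.5) and from 75746220 to 75748964 with Klf4 (2745 bp, −log10 q 52.0), so most of the extra length lay over the gene body. The fold enrichment of this wide peak was 4.42 with the empty vector and 3.28 with Klf4.

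The next strongest region at Mafa in the empty vector list was centred 7.61 kb beyond that end, at 75754748 to 75757111, inside the annotated neighbour Zc3h3. It was 2364 bp wide in empty vector cells and 2457 bp wide in Klf4 cells, with a −log10 q of 61.3 and 31.1. A narrower region beside it, 75757797 to 75758257, had a −log10 q of 22.3 with the empty vector and 37.1 with Klf4. On the other side of the gene 4 regions were found in both lists, and each was wider with Klf4, by 196 to 655 bp. Of the 10 pairs around Mafa, 7 were wider and 3 narrower with Klf4, beside 46.9% wider among 79834 one-to-one pairs of the whole lists. Without the peaks that touch Zc3h3, covered length was 5351 bp in empty vector cells and 7986 bp in Klf4 cells, a log2 ratio of 0.54. All protein-coding genes were not measured in this way, so this value has no background.

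Esrrg (chromosome 1, 187608510 to 188214885) is far longer than the other genes, at 606 kb, and held 42 of the 91 empty vector peaks and 40 of the 87 Klf4 peaks. Its 4 listed start sites, at 187609006, 187651758, 187652241 and 187997827, were all under a peak in both lists. Its 2 wide peaks of about the same extent in both lists covered the last of these (2685 and 2693 bp, −log10 q 39.8 and 29.7) and a stretch 187662047 to 187664699 (2653 and 2670 bp, −log10 q 12.6 and 10.9). The first start site had the weaker peaks, with a −log10 q of 10.4 with the empty vector and 5.18 with Klf4. The strongest pair of the gene lay deep inside it, at 188186505 to 188187314 with the empty vector (−log10 q 107) and 188186491 to 188187271 with Klf4 (75.0).

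Of the Esrrg peaks, 15 of 42 with the empty vector, covering 4310 bp, and 13 of 40 with Klf4, covering 4284 bp, were in 1 list only. The overlapped peaks were thus 64.3% of those with the empty vector, beside 81.2% of the whole list, and 67.5% of those with Klf4, beside 63.3%. The lengths called in 1 list only were thus nearly equal. All of these were modest, with a −log10 q of at most 7.94 with the empty vector and 7.97 with Klf4. One pair stood far apart in the strength the authors gave it: the peak at 188201350 to 188202238 had a −log10 q of 2.11 with the empty vector, and its counterpart at 188201303 to 188202282 had 22.3 with Klf4. Values of strength were given by list and were not tested against each other.

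Slc2a2 (chromosome 3, 28697903 to 28728361) had 9 peaks with the empty vector and 10 with Klf4, and none covered its start site in either list. The nearest peak ended 1254 bp upstream of it in empty vector cells and 1215 bp in Klf4 cells. The promoter shown, with an AAGGTCA match that 4.72% of all promoters hold, was thus outside the called regions. Strong regions lay around it in both lists. The one 15.8 kb upstream (28681664 to 28682554 with the empty vector) had a −log10 q of 154 with the empty vector and 115 with Klf4, the highest at this gene. The one within the gene at 28701657 to 28702378 had 71.8 and 42.3, and the one at 28736885 to 28737891, beyond the gene, had 90.2 and 84.5. Of the 8 pairs, 6 were wider with Klf4, beside 46.9% of all pairs, and the paired lengths summed to 5930 bp in empty vector cells and 5960 bp in Klf4 cells. The 1 empty vector peak and 2 Klf4 peaks without a counterpart had a −log10 q of 1.82, 5.77 and 1.81. Peaks shared more of their bases here than at the other genes, with a Jaccard index (shared over total covered bases) of 0.753 against 0.452 at Ucn3, 0.655 at Mafa and 0.524 at Esrrg.

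G6pc2 (chromosome 2, 69211073 to 69227993) has 2 listed start sites, and only the downstream one, at 69219949, was under a peak. That peak covered all 300 bases of the promoter shown in both lists. It was the strongest around this gene, with a −log10 q of 179 with the empty vector (69219601 to 69220224) and 128 with Klf4 (69219575 to 69220224), in the top 1.77% and 1.90% of the lists. Its fold enrichment was 7.40 in both. The sequence under it held 3 CACCC matches, 2 TGCTGAC matches and 2 CAGATG matches. A CAGATG and a TGCTGAC match, the latter read on the opposite strand, lie side by side from base 217 of the sequence shown. Of all promoters, 4.67% held at least 1 TGCTGAC match and 0.189% held 2, and 1.83% held at least 2 CAGATG matches. The nearest peaks to the upstream start site, at 69211073, were 4255 bp away in empty vector cells and 4697 bp in Klf4 cells.

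Over the G6pc2 body alone, covered length was 1729 bp in empty vector cells and 1027 bp in Klf4 cells (log2 ratio −0.55), against 0.09 for the whole window. A single wide and weak empty vector peak (69215328 to 69216051, 724 bp, −log10 q 2.32) with no Klf4 counterpart made up that difference. Outside the gene, a pair at Nostrin was 329 bp wide in empty vector cells and 1305 bp wide in Klf4 cells, and pulled the window the other way. The pair over the start site of Spc25, a kinetochore gene, measured 1073 and 1070 bp.

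Trpm5 (chromosome 7, 143071529 to 143094642) had the largest difference in covered length, 3219 bp more with Klf4. Of this, 2598 bp came from paired peaks. The pair at the start site of the neighbour Cd81, a tetraspanin gene, was 690 bp wide in empty vector cells and 2271 bp wide in Klf4 cells. The strongest pair inside Trpm5 was 922 bp wide with the empty vector (143077077 to 143077998, −log10 q 156) and 1991 bp with Klf4 (143075968 to 143077958, −log10 q 90.0). These 2 pairs held most of the difference. The listed start site of Trpm5, at 143094642, was under no peak, and the nearest began 202 bp upstream in empty vector cells and 215 bp in Klf4 cells. A Klf4 peak with no empty vector counterpart lay 0.723 kb downstream of it, inside the gene (143093672 to 143094166, −log10 q 10.6).

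The window of Trpm5 also held peaks of its neighbours. The strongest peak around it covered the start site of Tssc4 in both lists (−log10 q 226 and 159). A region inside Cd81 had a −log10 q of 3.37 with the empty vector (143062738 to 143063268) and 28.4 with Klf4 (143062596 to 143063338). Without all peaks that touch Cd81, Tssc4 or Kcnq1, covered length was 3435 bp in empty vector cells and 4644 bp in Klf4 cells, a log2 ratio of 0.39.

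**Figure D4:**
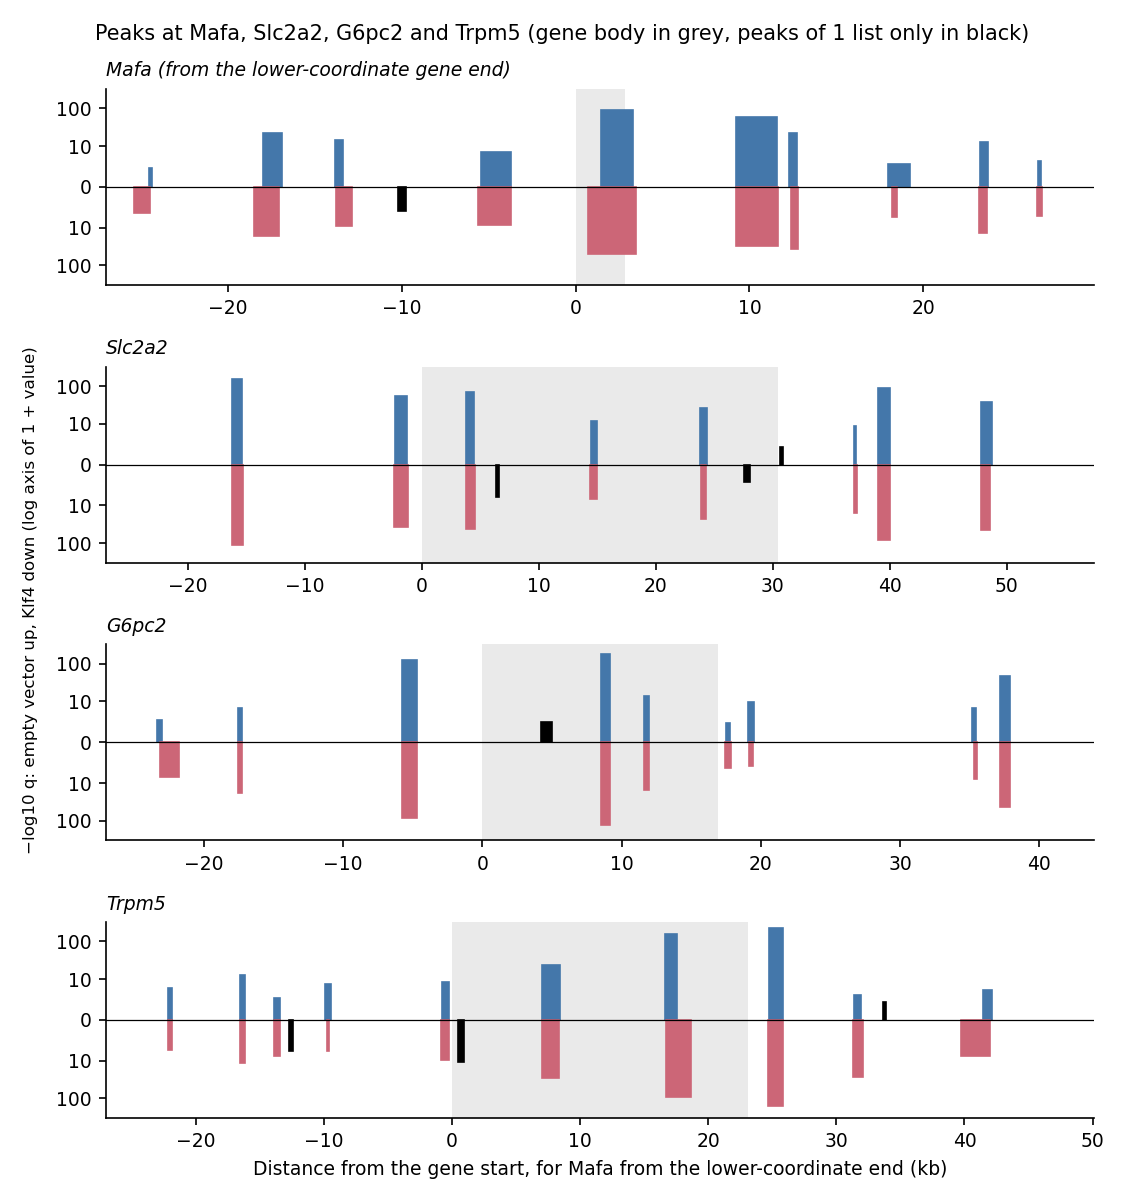
Peaks at Mafa, Slc2a2, G6pc2 and Trpm5 by distance from the gene start (kb; for Mafa from the lower-coordinate gene end), with bar width the width of the peak and bar height its −log10 q (log axis of 1 + value), empty vector upward in blue, Klf4 downward in red and peaks of 1 list only in black. Tall bars face each other at all 4 genes, and of the black bars, 3 with the empty vector and 5 with Klf4, the tallest is the Klf4 peak inside Trpm5 (−log10 q 10.6).

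Sharing of peaks between the lists followed their strength. Around the 7 genes 69 of 91 empty vector peaks (75.8%, 95% Wilson interval 66.1 to 83.5%) shared at least 1 bp with a Klf4 peak, beside 81.2% of the whole list. In the other direction 69 of 87 Klf4 peaks (79.3%, interval 69.6 to 86.5%) did so with an empty vector peak, beside 63.3% of the whole list. These counts hold the 4 unmatched peaks of Ucn3, which was chosen on these values. Without Ucn3 both shares were 78.6% (66 of 84). Only counting error is in these intervals, and peaks near each other may depend on one another. Of the empty vector peaks with a −log10 q of at least 10, 36 of 36 were overlapped, beside 98.9% of such peaks in the whole list. Of such Klf4 peaks 36 of 37 were overlapped, beside 82.4%, and the exception was the peak inside Trpm5 named above. The median −log10 q of the peaks not found in the other list was 2.24 with the empty vector and 4.64 with Klf4, against 10.4 and 10.9 for those found. Esrrg weighed on these shares: without it they were 85.7% (42 of 49) and 89.4% (42 of 47). Of the 69 pairs, 41 were wider and 28 narrower with Klf4, with a median difference of 26 bp. Over all one-to-one pairs of the lists 46.9% were wider with Klf4, and the median difference was −6.5 bp.

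**Figure D5:**
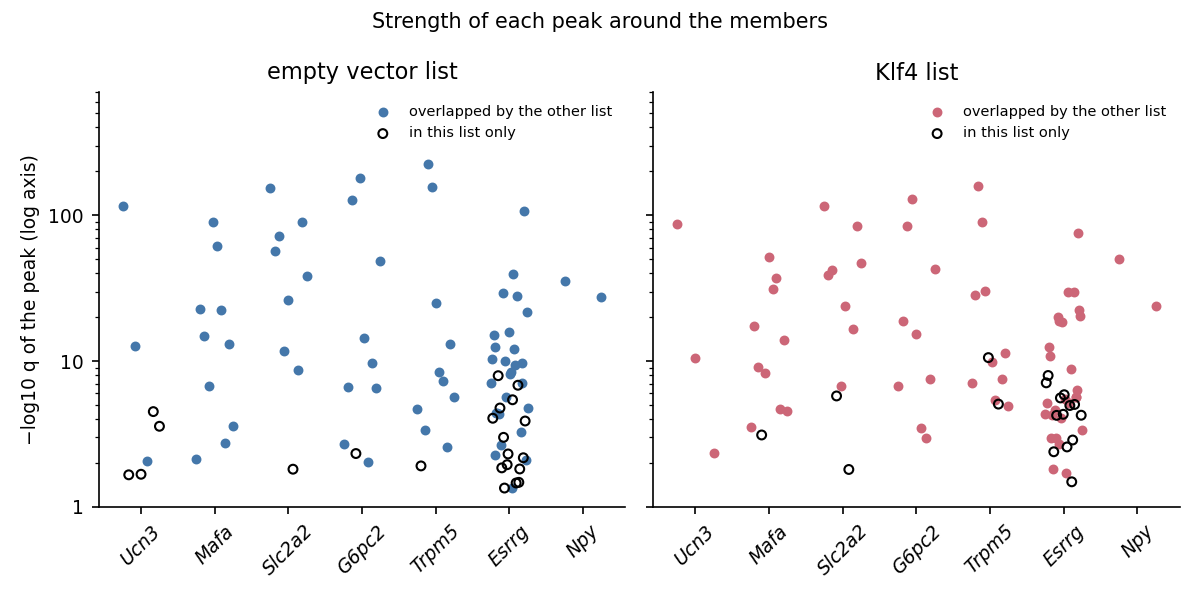
Strength of each peak around the 7 genes (−log10 q, log axis) in the empty vector list on the left and the Klf4 list on the right, with filled points for peaks overlapped by the other list and open circles for peaks of 1 list only. All open circles lie below 10 except the Klf4 peak inside Trpm5 at 10.6, and all 4 at Ucn3 are in the empty vector list.

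Other genes of the mature beta cell, listed with earlier results of these data known, showed small differences on the same measure. Of 24 such genes, 0 were lower and 1 was higher with Klf4 past a log2 ratio of 0.5, beside 2.07% and 27.8% of all genes, with a median of 0.07 beside 0.21. At a share of 2.07%, a count of 0 in 24 is near that of all genes. The one past the limit was Nkx6-1, a homeodomain factor of beta cells, with 4900 bp in empty vector cells and 9338 bp in Klf4 cells (log2 ratio 0.87). Ins2 (0.42) and the fatty acid receptor gene Ffar1 (0.29) were also among the highest. The lowest were Glis3 (−0.24), the potassium channel gene Kcnj11 (−0.20), the incretin receptor gene Glp1r (−0.11) and Syt4 (−0.07). Windows of neighbours such as Abcc8 and Kcnj11 share peaks.

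Genes of immature beta cells, or genes that mature beta cells keep silent, were listed too. Of 14, 0 were lower and 10 were higher past the limit, beside 2.07% and 27.8% of all genes, with a median of 0.65 beside 0.21. Sox9, a progenitor factor, lacked any peak in empty vector cells and had 5 peaks covering 2834 bp with Klf4. The log2 ratio was 1.59 at Aldh1a3, a gene of dedifferentiated beta cells, where covered length was 1349 bp in empty vector cells and 5067 bp in Klf4 cells. It was 1.23 at Acot7 and 0.90 at Igfbp4. The lowest values were at Gast (0.01), the lactate transporter gene Slc16a1 (0.22), Rest (0.30) and Hes1 (0.39). Npy, the gene of immature beta cells among the 7, thus had a ratio below all 14. It and the 14 genes were chosen with earlier results of these data known, so this is a description. Cd81, one of the 14, shares its peaks with the window of Trpm5.

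Among 21 paralogs, receptors and partners of the 7 genes, 0 were lower and 12 were higher past the limit, beside 2.07% and 27.8% of all genes, with a median of 0.64 beside 0.21. Ucn2, a paralog of Ucn3, had 1380 bp in empty vector cells and 6425 bp in Klf4 cells (log2 ratio 1.88), and Crhr2, the receptor of urocortin 3, had 3407 and 7068 bp (0.95). Npy2r lacked any peak in empty vector cells and had 1 of 554 bp with Klf4, and Npy1r and Npy5r share a single peak of 582 and 832 bp. The other nuclear receptors of the Esrrg family, Esrra and Esrrb, had log2 ratios of 0.84 and 0.83, against 0.07 at Esrrg. Esrrb, Npy1r and Npy5r were named after their values were seen. The lowest were the liver paralog of G6pc2, G6pc (−0.18), Crhr1 (0.17), Ppargc1a (0.19) and G6pc3 (0.23).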

How the data were processed

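The samples were 8 ATAC-seq libraries, and groups were taken from the labels. Per the submitters' processing notes, FastQC, Bowtie2, MACS2 and DiffBind were used with build mm10, the same assembly as GRCm38. Versions and options, and how reads were filtered, shifted and merged, are not given in the sources used here. The authors deposited 1 broadPeak list per plasmid. Each peak has a fold enrichment (a ratio to local background), the −log10 p and −log10 q, and a score, which is 10 times −log10 q. The smallest deposited −log10 q was 1.02 and 1.00. Peaks were ranked by q in the text and by p for the limits on peak number. These values were used only to describe and rank peaks within a list, and depth sets how many weak peaks pass.

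Peaks on chromosomes 1 to 19, X and Y were kept. Covered length was summed over each gene body (RefSeq, GRCm38.p6) extended by 25 kb at each end, and log2 ratios were taken after adding 500 bp to each length. A size of 0.5 served as the limit. Peaks were matched by an overlap of at least 1 bp. All 7 genes and the genes of 3 lists are covered, with the 4 lowest and 4 highest of each list named and those with no peak in a list, except that some listed genes are not reported here. The members and lists were chosen with earlier results of these data known. Motif letters were searched on both strands of 32841 promoters. Beside the motifs shown, the homeodomain motif TAATTA was searched and had no match in the 10 promoters of the 7 genes. The forkhead motif TGTTTAC had none. The cyclic AMP response motif TGACGTCA had none. The TATA box motif TATAAA had 1, at Esrrg. The tools were pandas 2.3.3 and numpy 2.4.6 on Python 3.11.15, with scipy 1.17.1 for intervals and matplotlib 3.10.9 for plots.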

Additional observations from a re-analysis of the deposited data

How the results depend on the processing

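No paired analysis was possible because each group has a single merged list, and leaving out replicates was not run for the same reason. Of 118 values under other settings, 88 kept their direction and side of the limit (for counts, stayed within 1.5 times, and for shares, within the 95% interval). At a −log10 q of at least 5 the log2 ratio of Ucn3 reversed to 0.14, 1 gene was lower past the limit and the empty vector share was 85.2%. For Ucn3 it was −0.43 with 50 kb on both sides, −0.11 over the gene body, −0.031 when peaks under 500 bp were left out and −0.034 with the top 20000 peaks. Under the first and the last 2 of these, 1 gene was lower. Trpm5 had 0.34 with 10 kb and 0.46 with peaks of at least 500 bp, with 0 genes higher past the limit in both, and 0.39 without peaks touching other coding genes. Mafa then had 0.54. G6pc2 reversed to −0.30 in that setting, to −0.55 over its body and to −0.27 with 10 kb. Over gene bodies Esrrg and with it the median of the 7 genes reversed to −0.0078. Reversals to −0.18 at Esrrg, −0.0075 at Slc2a2 and −0.092 at G6pc2 and in the median came with the Klf4 list cut to its 100099 strongest peaks, where the empty vector share was 65.9%. That share was 100% (16 of 16) with the top 20000 peaks and 85.7% without Esrrg, and the Klf4 share was then 89.4%. Without Ucn3, 1 gene was lower past the limit. The settings without peaks of other genes, without Esrrg and without Ucn3 were added after seeing the data. The cause of these changes was not tested, except that limits on strength or width remove peaks.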
